A study of Mus musculus with 16 samples.

Results

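The 6 ChIP-seq libraries described here map 3 histone marks in mouse cell lines that lack Dicer, the enzyme needed to make most mature microRNAs from their hairpin precursors. They were chosen by label alone, as every KO library of H3K4me3, H3K36me3 or H3K27me3, and are 6 of the 16 samples of the series, with 2 replicates for each mark. The cells were immortalized monoclonal murine MSC lines (mesenchymal stem or stromal cells) of strain C57BL/6 with the genotype Dicer -/-, so each line is the progeny of 1 clone, and the MSC label was not checked against marker genes here. Each library has a peak list called against whole-cell extract (WCE), the DNA of the same kind of cells before antibody capture, and only these lists were used. Nothing in the labels says whether replicates 1 and 2 came from separate cultures or clones, so the spread between them may be technical. Each mark was set against the other marks of the same replicate number on chromosomes 1 to 19 of the mm9 build. Positions are given by coordinate alone, and the state of named fetal and mesenchymal loci was not analysed here because the gene tables used are on another build.

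H3K4me3 is placed at promoters, mostly those of active genes or of genes in CpG islands. H3K36me3 is laid down in the body of transcribed genes by an enzyme that travels with elongating RNA polymerase II, and grows toward the end of the gene. H3K27me3 is written by Polycomb repressive complex PRC2 over silenced developmental genes and can spread over long domains. H3K36me3 on a histone tail impedes PRC2 on that tail, and promoters that carry both H3K4me3 and H3K27me3 are called bivalent. In bulk ChIP, an overlap of peaks does not show that both marks were on the same nucleosome, allele or cell.

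The lists differed widely in length. The H3K4me3 lists held 16267 peaks in KO replicate 1 and 23215 in replicate 2, covering 31.5 Mb and 51.3 Mb. H3K36me3 had 33028 and 35213 peaks over 86.5 Mb and 108.5 Mb. For H3K27me3, replicate 1 held 698 peaks over 0.729 Mb and replicate 2 held 17471 peaks over 34.4 Mb, a 47.2-fold difference in covered length. The same ratio of replicate 2 to replicate 1 was 1.63 for H3K4me3 and 1.25 for H3K36me3. The H3K27me3 map of these lines therefore rests mainly on replicate 2. Whether depth, enrichment or the cells set this difference was not tested, because no read counts were used.

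The shorter lists were nearly contained in the longer ones. Of replicate 1 peaks, 98.1% of H3K4me3, 85.7% of H3K36me3 and 86.2% of H3K27me3 (602 of 698) overlapped a replicate 2 peak of the same mark. In the other direction the shares were 64.4%, 64.6% and 2.94%. Of 17559 H3K27me3 regions made by merging both lists, 505 held a peak of both replicates, against 14916 of 23484 for H3K4me3 and 18505 of 35717 for H3K36me3.

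H3K4me3 and H3K36me3, the promoter and gene-body marks of transcribed genes, lay within 10 kb of each other without overlap more often than they overlapped. In replicate 1, 1188 of 16267 H3K4me3 peaks (7.3%, 95% Wilson interval 6.91 to 7.71) shared at least 1 bp with an H3K36me3 peak. In replicate 2, 2417 of 23215 did (10.4%, interval 10.0 to 10.8). Within 10 kb, overlaps included, 42.7% and 39.9% of H3K4me3 peaks had an H3K36me3 peak. This window is wider than most H3K4me3 peaks, so the order of these shares follows in part from its size. The intervals treat peaks as independent and cover counting error only. The median distance from H3K4me3 to H3K36me3 was 15.5 kb in replicate 1 and 18.6 kb in replicate 2, and an H3K36me3 peak lay 16.9 kb and 13.1 kb from the nearest H3K4me3 peak. Seen from H3K36me3, 1215 peaks (3.68%) and 2534 peaks (7.2%) met H3K4me3.

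**Figure D1:**
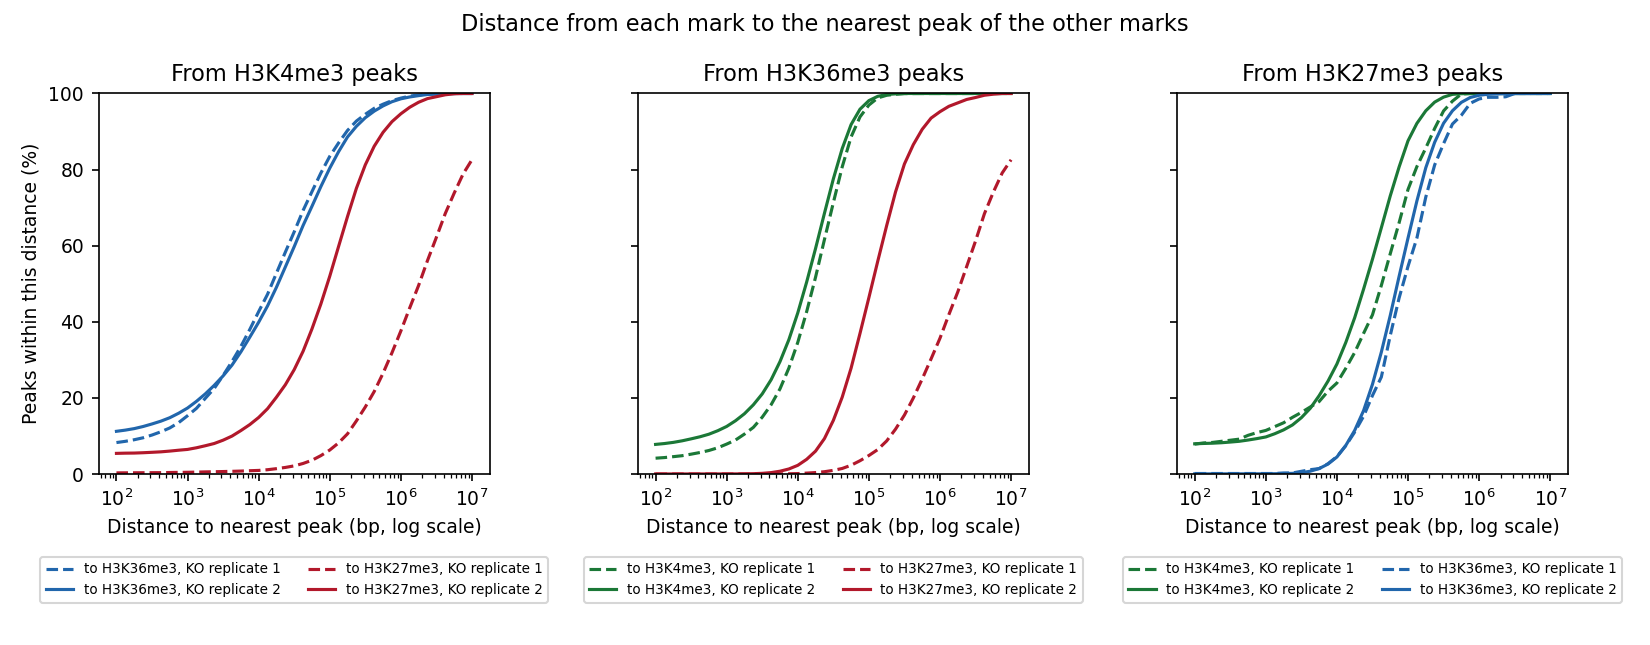
Share of peaks (%) that have a peak of another mark within a given distance (bp, log axis), from H3K4me3, H3K36me3 and H3K27me3 peaks; dashed lines are KO replicate 1 and solid lines replicate 2. The distance between H3K4me3 and H3K36me3 is nearly the same in both replicates, whereas that from H3K4me3 to H3K27me3 moves from a median of 1828 kb to 92.8 kb with the length of the H3K27me3 list.

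Around the centres of H3K4me3 peaks, H3K36me3 left a hollow. At the centre itself, 1.34% of replicate 1 peaks and 1.94% of replicate 2 peaks were covered by H3K36me3. The share was 2.97% and 3.87% at 1 kb from the centre, averaged over both sides, and 7.06% and 7.43% at 2 kb. It reached 11.3% and 10.8% at 5 kb and was 12.1% and 12.2% at 20 kb. Most of the hollow thus lay within 5 kb of the centre. It was wider than most H3K4me3 peaks themselves, whose median was 1775 bp and 1838 bp. At 2 kb from the centre, where H3K36me3 was still low, H3K4me3 covered only 8.52% and 11.9%.

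**Figure D2:**
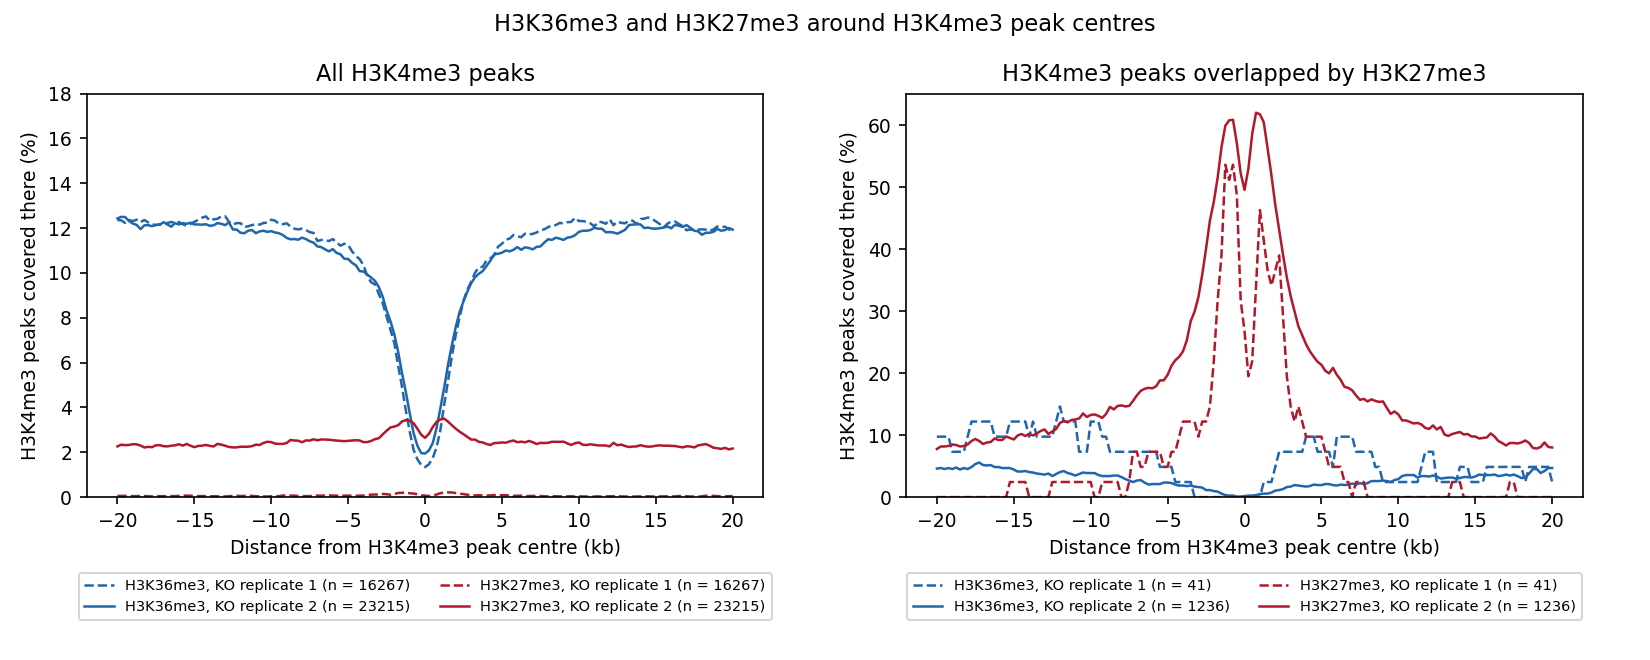
Share of H3K4me3 peaks (%) covered by H3K36me3 (blue) or H3K27me3 (red) at each distance (kb) from the H3K4me3 peak centre, for all H3K4me3 peaks (left) and for those overlapped by H3K27me3 (right); dashed lines are KO replicate 1, solid lines replicate 2. H3K36me3 dips at the centre in all peaks, while in replicate 2 H3K27me3 reaches 61.3% at 1 kb from the centre of the overlapped peaks against 49.6% at the centre.

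H3K36me3 lay on 1 side of H3K4me3 more often than on both. Peaks touching no H3K36me3 but with H3K36me3 within 10 kb on 1 side numbered 4752 (29.2% of H3K4me3 peaks) in replicate 1 and 5386 (23.2%) in replicate 2. Those with it on both sides numbered 1001 (6.15%) and 1458 (6.28%), so that 1-sided cases were 4.75 and 3.69 times as common. A mark that is sparse within 10 kb falls on 1 side more often than on both even if the sides are independent. No expected ratio was computed, so these counts do not show a preference for 1 side. The left side held 49.2% and 50.5% of the 1-sided cases, with no preference for a direction of the chromosome. In these cases the gap to H3K36me3 had a median of 3360 bp and 3544 bp. H3K36me3 was absent within 10 kb of the remaining 57.3% and 60.1% of H3K4me3 peaks.

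The H3K4me3 peaks near H3K36me3 were the wide, high-scoring ones of their lists. With H3K36me3 within 10 kb or overlapping and no H3K27me3 overlap, the median width was 2211 bp and 2665 bp. Of these peaks, 67.4% and 69.3% had a score of at least 3100, a level reached by many of the strongest peaks. With neither, the 9294 peaks of replicate 1 had a median width of 1420 bp and 22.6% reached that level. The 12863 peaks of replicate 2 had 1430 bp and 26.3%. Overlap grew with width. H3K36me3 met 0.567% and 1.58% of H3K4me3 peaks under 1 kb, 14.4% and 17.3% of those of 2 to 5 kb, and 39.6% (80 of 202) and 46.1% (409 of 887) of those of 5 to 10 kb. A wide peak also has more bp in which an overlap can fall, and its part in these shares was not tested. H3K36me3 peaks showed the same order, with 0.772% and 2.18% of those under 1 kb meeting H3K4me3 against 23.7% (44 of 186) and 29.8% (128 of 430) of those of 20 kb or more.

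H3K27me3 and H3K36me3 almost never met. In replicate 1, 1 of 698 H3K27me3 peaks (0.143%, interval 0.0253 to 0.807) overlapped H3K36me3, and in replicate 2, 8 of 17471 (0.0458%, interval 0.0232 to 0.0903). As a share of H3K36me3 peaks these were 0.00303% and 0.0227%. The shared sequence came to 665 bp and 6164 bp in all. The single stretch of replicate 1, chr8:20017255-20017919, was met again in replicate 2 at chr8:20017246-20017906. All 3 marks met in 0 stretches of replicate 1 and in 2 stretches of replicate 2, at chr3:83571334-83571861 and chr6:6829731-6830451, together with parts of H3K4me3 peaks over 1249 bp.

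H3K4me3 met H3K27me3 far more often than H3K36me3 did. Of H3K27me3 peaks, 45 (6.45%, interval 4.85 to 8.52) in replicate 1 and 1353 (7.74%, interval 7.36 to 8.15) in replicate 2 overlapped H3K4me3. The mean was 7.10% ± 0.92 (SD, n = 2) for overlap with H3K4me3 and 0.0945% ± 0.0689 (SD, n = 2) for overlap with H3K36me3, although the H3K36me3 lists cover more of the genome than the H3K4me3 lists. Both replicates showed this direction. The small SD for H3K4me3 depended on which lists were paired. With replicate numbers crossed between marks, 20.1% of replicate 1 and 3.06% of replicate 2 H3K27me3 peaks overlapped H3K4me3 (SD 12.0). The difference of 7.00 percentage points had an exact two-sided permutation p of 0.333, the smallest that 2 values against 2 can give. Both sides were counted on the same H3K27me3 libraries, so these values are paired and not independent, which this test ignores. Its size depended on the setting: it was 12.9 points with scores of at least 160, 11.5 with replicate numbers crossed between marks, 1.30 when at least 50% of the H3K27me3 peak had to be covered, and 19.3 with replicate 2 of H3K27me3 limited to its 698 highest-scoring peaks, an alternative chosen after seeing the data. Each of the 4 comparisons between marks that were tested had an exact permutation p of 0.333. Adjusted by Benjamini-Hochberg it was 0.333, so none of them could pass a threshold of 0.05.

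Distances gave the same order of partners. The nearest H3K4me3 peak lay a median 43.1 kb and 24.97 kb from an H3K27me3 peak, and the nearest H3K36me3 peak 86.3 kb and 71.0 kb. H3K4me3 was within 10 kb of 23.9% and 28.9% of H3K27me3 peaks, and H3K36me3 within 10 kb of 4.58% and 4.48%. More than 100 kb from any H3K36me3 peak lay 45.4% and 38.0% of H3K27me3 peaks. Of H3K4me3 peaks, 41.3% ± 2.0 (SD, n = 2) had H3K36me3 within 10 kb and 7.91% ± 9.83 had H3K27me3. The latter was 0.953% in replicate 1 and 14.9% in replicate 2, and the exact permutation p was again 0.333. The log2 of the median distance in bp from H3K4me3 was 18.65 ± 3.04 to H3K27me3 and 14.05 ± 0.19 to H3K36me3 (SD, n = 2, exact permutation p = 0.333). This difference of 4.60 was 6.88 in replicate 1 alone and 2.32 in replicate 2 alone. For the 10 kb shares and the log2 distances from H3K4me3, both sides came from the same H3K4me3 libraries, so these values are paired as well.

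Divided by bp, the marked part of chromosomes 1 to 19 was 117.6 Mb in replicate 1 and 190.2 Mb in replicate 2. H3K36me3 alone took 72.6% and 55.6% of it, H3K4me3 alone 25.8% and 24.9%, and H3K27me3 alone 0.603% and 17.4%. H3K4me3 with H3K36me3 made up 0.906% and 1.39%, and H3K4me3 with H3K27me3 0.0163% and 0.671%. The last state came to 19.1 kb in replicate 1 and 1.276 Mb in replicate 2. Nearly all marked bp thus carried a peak of 1 mark only.

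Along the chromosome, H3K36me3 peaks followed each other in runs. The next peak after an H3K36me3 peak was again H3K36me3 in 80.5% of cases in replicate 1 and 76.9% in replicate 2, H3K4me3 in 19.3% and 21.3%, and H3K27me3 in 0.251% and 1.79%. Counted over all peaks, H3K4me3 was 32.5% and 30.6% of the list, H3K36me3 66.1% and 46.4%, and H3K27me3 1.40% and 23.0%. The run with the most peaks held 77 H3K36me3 peaks in replicate 1 (chr11:84008735-84325642) and 56 in replicate 2 (chr11:84008799-84325378), nearly the same interval. H3K4me3 stood on both sides of 97.3% and 84.9% of H3K36me3 runs, and H3K27me3 on both sides of 1 and 9 runs. Such a run can be flanked only by H3K4me3 or H3K27me3. With H3K27me3 the rarer of these, above all in replicate 1, high shares follow in part from the lists.

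After an H3K27me3 peak came H3K4me3 in 53.1% and 22.9% of cases and H3K36me3 in 13.2% and 3.49%. H3K4me3 thus followed more often than its share of all peaks in replicate 1 and less often in replicate 2, while H3K36me3 followed less often in both. Another H3K27me3 peak came next in 33.7% of cases in replicate 1 and 73.6% in replicate 2, above its share of all peaks of 1.40% and 23.0%. Runs averaged 1.51 and 3.78 peaks. The run with the most H3K27me3 peaks held 48 in replicate 2 (chr11:96292630-96566003) and 13 in replicate 1 (chr18:89676894-89976005). H3K4me3 stood on both sides of 65.6% and 74.9% of H3K27me3 runs, H3K4me3 on 1 side and H3K36me3 on the other side of 31.2% and 23.5%, and H3K36me3 on both sides of 3.25% and 1.65%. Going from H3K27me3 to H3K36me3 along a chromosome thus mostly passed an H3K4me3 peak.

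Gaps of matched length between these marks held H3K4me3 more often than gaps within a mark. A gap counted if H3K4me3 covered at least 1 bp of it, also where the peak reached in from a flank. Between an H3K27me3 and an H3K36me3 peak 5 to 10 kb apart, this was so in 85.7% of gaps (18 of 21) in replicate 1. In replicate 2 it was so in 72.5% (333 of 459). Between H3K36me3 peaks at that distance the shares were 19.01% and 23.7%, and between H3K27me3 peaks 16.7% (4 of 24) and 7.44% (129 of 1733). In gaps of 20 to 50 kb the H3K36me3 pairs came close to the mixed pairs, at 59.7% and 66.1% against 67.2% and 70.5%, while the H3K27me3 pairs stayed at 5.26% and 22.3%.

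**Figure D3:**
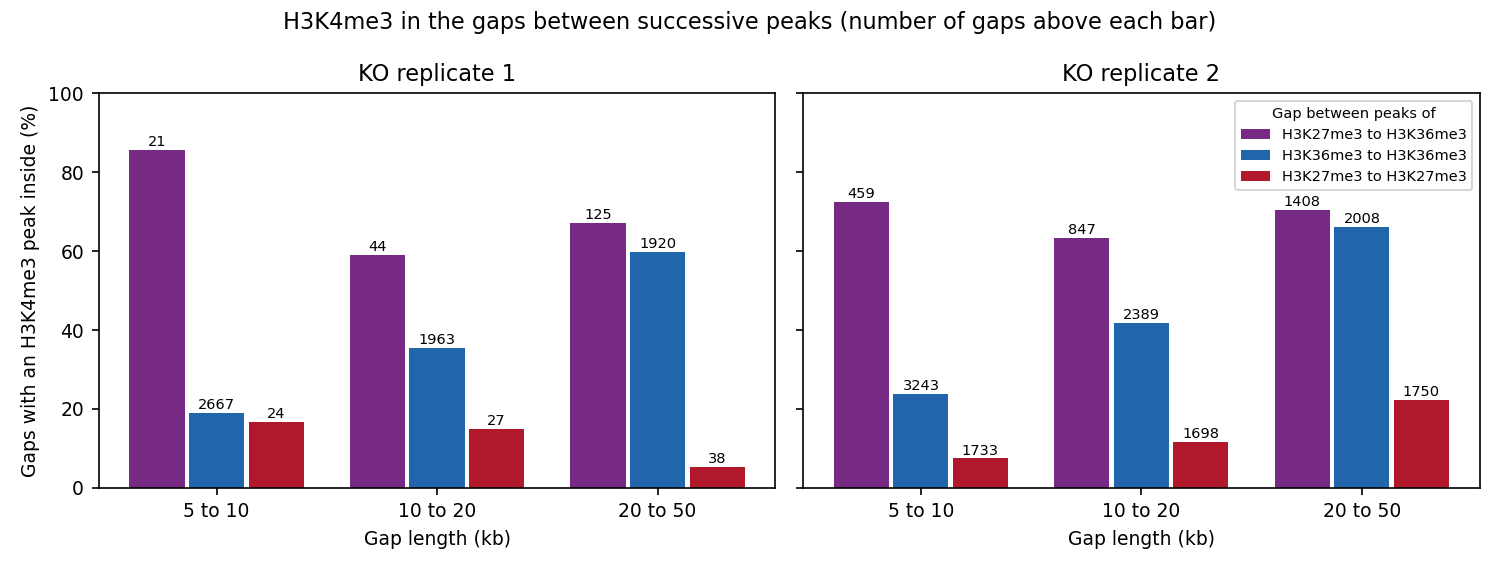
Share of gaps (%) between successive H3K27me3 or H3K36me3 peaks in which H3K4me3 covered at least 1 bp. Bars are given by gap length (kb) and by the marks at the ends, in each KO replicate. Numbers above bars are gaps. Mixed gaps of 5 to 10 kb held H3K4me3 in 85.7% and 72.5% of cases, above the gaps between peaks of the same mark.

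H3K4me3 peaks overlapped by H3K27me3, the candidates for a bivalent state, numbered 41 (0.252% of H3K4me3 peaks, interval 0.186 to 0.342) in replicate 1 and 1236 (5.32%, interval 5.04 to 5.62) in replicate 2. Most were overlapped in part: 38 and 931 were partly covered, and 3 and 305 lay wholly inside an H3K27me3 peak. Over these peaks H3K27me3 was lower at the centre than beside it. In replicate 2, 49.6% had H3K27me3 at the centre, 61.3% at 1 kb, 47.4% at 2 kb, 20.5% at 5 kb and 13.3% at 10 kb. In replicate 1 the shares were 26.8% at the centre and 48.8% at 1 kb, over 41 peaks. Since an overlap was required to enter this set, a high share near the peak follows from the choice. An overlap in part need not reach the centre, so the lower share there may also follow from it. The shape is therefore only described.

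H3K36me3 was sparse around the doubly marked peaks of replicate 2, covering 0.162% at the centre, 2.14% at 5 kb and 3.40% at 10 kb, against 10.8% and 11.8% at 5 and 10 kb from all H3K4me3 peaks. Around the 41 peaks of replicate 1 it covered 6.10% at 5 kb and 7.32% at 10 kb, against 11.3% and 12.3% for all, a smaller difference that rests on few peaks. Without H3K36me3 within 10 kb, 32 and 1091 H3K4me3 peaks met H3K27me3. Their median width was 1168 bp and 1659 bp, and 6.25% and 31.6% had a score of at least 3100. A further 9 and 145 peaks met H3K27me3 and had H3K36me3 within 10 kb, with medians of 2141 bp and 2750 bp. Among the doubly marked peaks, those with H3K36me3 nearby thus had the larger median width in both replicates. In replicate 1, those without it had a lower median width than the peaks with neither mark (1420 bp), and in replicate 2 a higher one than that group (1430 bp).

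Among H3K27me3 peaks, overlap with H3K4me3 grew with width in replicate 2. The shares there were 2.45% under 1 kb, 5.29% at 1 to 2 kb, 13.3% at 2 to 5 kb, 24.3% (178 of 732) at 5 to 10 kb, 37.0% (40 of 108) at 10 to 20 kb, and 6 of 9 peaks of 20 kb or more. In replicate 1 they were 1.22%, 11.0%, 32.3% (10 of 31) and 2 of 2 for the classes up to 10 kb. Here too a wide peak has more bp in which an overlap of at least 1 bp can fall, and how much this adds was not tested. Conversely, H3K27me3 met 3.65% of the H3K4me3 peaks under 1 kb in replicate 2, 7.07% of those of 1 to 2 kb, 4.42% of those of 2 to 5 kb and 3.04% of those of 5 to 10 kb. It met 0 of the 42 peaks of 10 to 20 kb, a count of 0 that allows a share of up to 7.14%, so that a share like that of the whole list was not detectable there. H3K36me3 met 26 of these 42. Of the 2 peaks of 20 kb or more, H3K27me3 met 0 and H3K36me3 met 1.

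Median peak widths of H3K4me3 and H3K36me3 were close. Median H3K36me3 width was 1566 bp and 1660 bp, below the 1775 bp and 1838 bp of H3K4me3. The log2 widths were 10.65 ± 0.06 and 10.82 ± 0.04 (SD, n = 2, exact permutation p = 0.333). This order rests on how peaks are delimited: with peaks of 1 mark less than 1 kb apart joined, H3K36me3 was wider by 0.32 on the log2 scale, and with scores of at least 160 by 0.25. The tail went the other way in the lists as deposited, where the widest H3K36me3 peaks reached 58793 bp and 68426 bp and 186 and 430 were 20 kb or more. H3K27me3 peaks had medians of 902.5 bp and 1425 bp and reached 6821 bp and 40866 bp.

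The regions with most H3K27me3 in both replicates took several forms. At chr11:96029805-96070670 the mark covered 7365 bp in 7 peaks in replicate 1 and 40866 bp in 1 peak in replicate 2, with no H3K4me3 peak within 91.8 kb and 43.3 kb and no H3K36me3 within 95.9 kb and 96.0 kb. At chr5:148076684-148093033 it covered 5833 bp and 16350 bp, with H3K4me3 at 77.0 kb and 76.8 kb and H3K36me3 at 150.9 kb and 150.1 kb. Both thus lay far from the other marks in both replicates, but not apart from further H3K27me3. Within 50 kb of the centre, more H3K27me3 peaks lay outside both regions in replicate 2, and outside the chr5 region in replicate 1. At chr19:44815238-44839332, with 7241 bp and 24095 bp, no H3K4me3 lay inside in replicate 1 but 1847 bp did in replicate 2. At chr4:3854308-3865237, with 8018 bp and 10930 bp, H3K4me3 covered 1305 bp and 4122 bp, and an H3K36me3 peak was 92.1 kb away in replicate 1 but 3.01 kb away in replicate 2.

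The remaining region, chr6:52202730-52210525, lay at the end of a chain of H3K4me3 peaks. H3K27me3 covered 6029 bp and 7796 bp there, and H3K4me3 2110 bp and 5809 bp of the same region. To its left, in replicate 1, 7 H3K4me3 peaks followed each other from 52157768 to 52204185, of which 1, from 52169411 to 52185336, contained H3K36me3 peaks at chr6:52172610-52175174 and chr6:52180745-52182854. The H3K27me3 peaks then ran from 52203686 to 52209812, and H3K4me3 followed again at chr6:52209781-52210434 and chr6:52210567-52211735. In replicate 2, H3K4me3 was nearly continuous from 52153277 to 52211671 in 6 peaks, and H3K27me3 covered chr6:52202730-52210525 and chr6:52210738-52220829. Both replicates thus had a chain of H3K4me3 on the left that overlapped H3K27me3. In replicate 1 the H3K27me3 lay between H3K4me3 peaks, and in replicate 2 it went on to the right of the last of them.

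**Figure D4:**
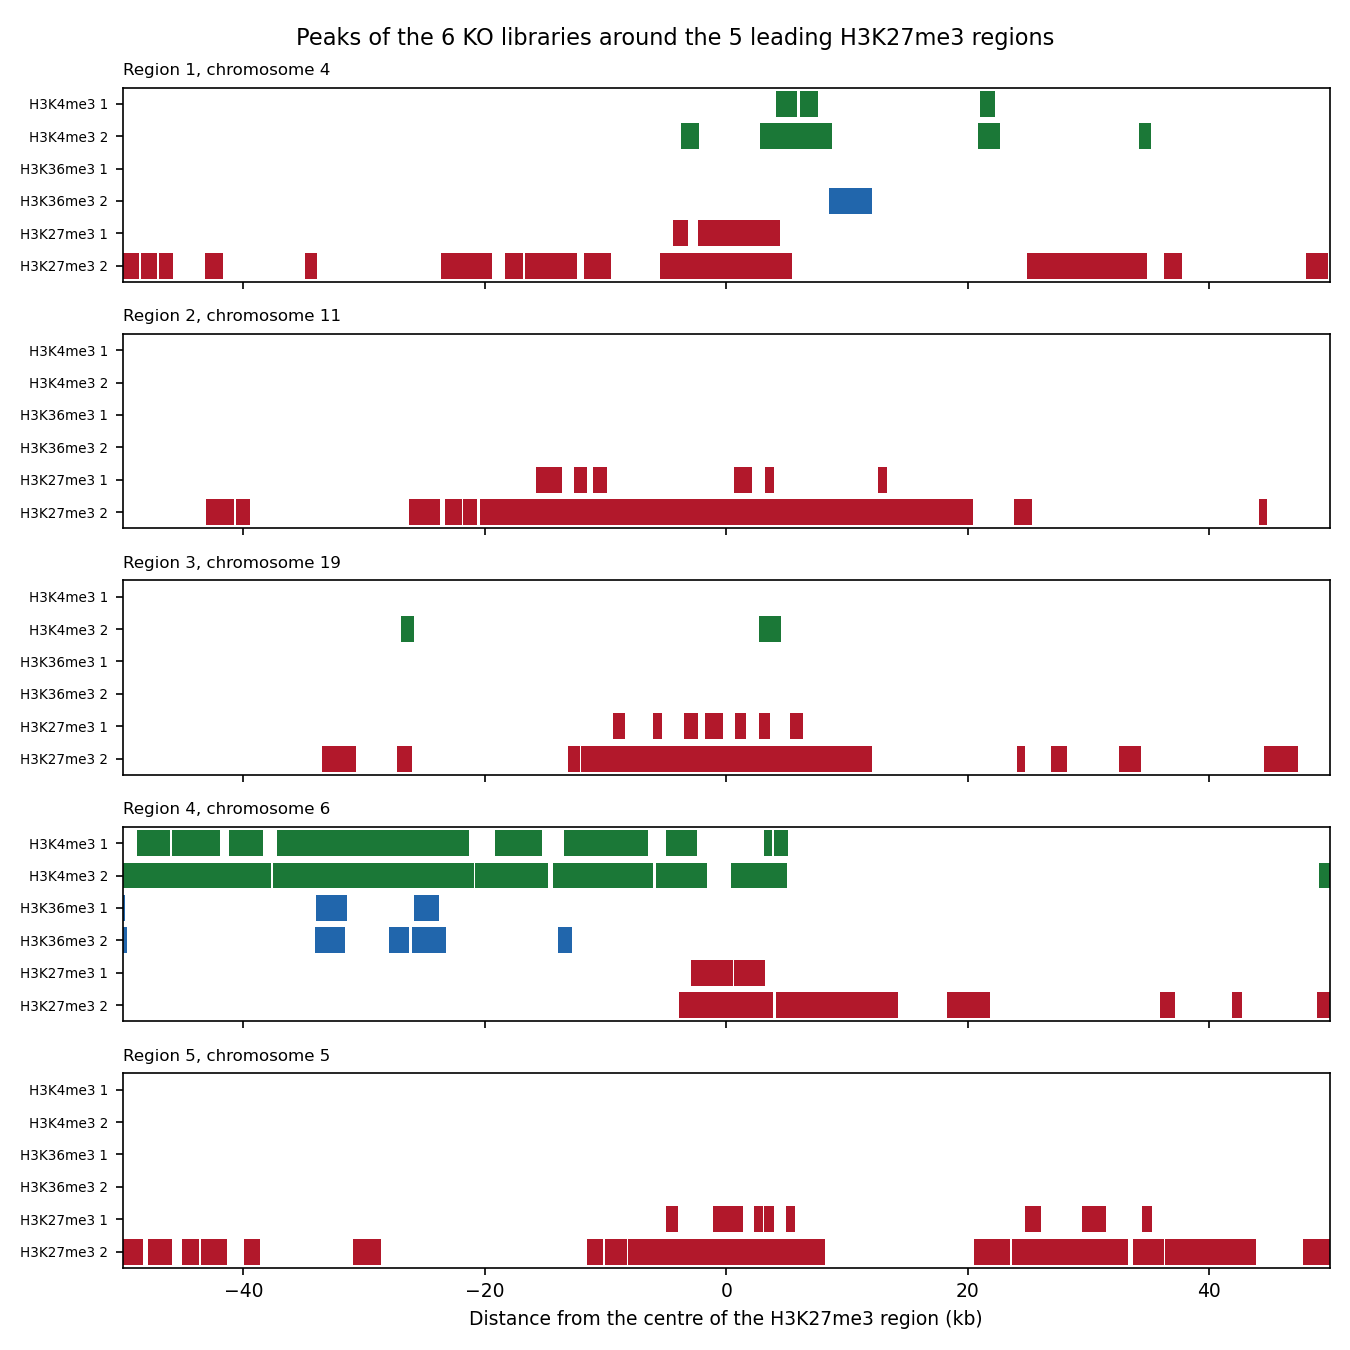
Peaks of the 6 KO libraries (rows, mark and replicate number) within 50 kb of the centre of the 5 regions with most H3K27me3 in both replicates, drawn to scale in kb from the centre; green is H3K4me3, blue H3K36me3 and red H3K27me3. Regions 2 and 5, on chromosomes 11 and 5, show H3K27me3 only, whereas region 4, on chromosome 6, borders on a chain of H3K4me3 peaks.

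That chain on chromosome 6 also held 1 of the 5 regions with most H3K4me3. At chr6:52169081-52185719 the mark covered 15926 bp and 16639 bp, with 4675 bp and 7022 bp of H3K36me3 inside and H3K27me3 at 17.97 kb and 17.0 kb. The leading region, chr15:85494295-85518396, had 16412 bp and 24102 bp of H3K4me3 and 12892 bp and 16040 bp of H3K36me3. At chr13:31895054-31908211, H3K4me3 covered 12408 bp and 13158 bp and H3K36me3 5255 bp and 5986 bp. In these 3 regions broad H3K4me3 shared bp with H3K36me3 in both replicates. The bp of each mark were counted separately within a region, so not all of them were shared. In replicate 1 of the leading region, H3K4me3 ended at 85512200, and an H3K36me3 peak went on from 85511405 to 85517496. At chr5:143571854-143586620, with 13537 bp and 14767 bp of H3K4me3, H3K36me3 covered 0 bp and 2846 bp, and at chr3:5208434-5230016, with 13616 bp and 21583 bp, the nearest H3K36me3 was 11.5 kb and 11.0 kb away. None of the 5 held H3K27me3 in either replicate.

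The 5 regions with most H3K36me3 in both replicates were long and nearly unbroken. They were chr4:138944222-139034065 (89323 bp and 85307 bp covered), chr17:74996829-75071407 (73660 bp and 73127 bp), chr6:35133370-35198084 (64103 bp and 63973 bp), chr1:38088457-38157136 (59594 bp and 68287 bp) and chr2:91386576-91451232 (58952 bp and 64657 bp). None held H3K27me3 in either replicate. In the chromosome 17 region H3K4me3 covered 542 bp and 1350 bp.

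H3K4me3 and H3K27me3 shared 43 stretches in both replicates, with a median length of 400 bp, and H3K4me3 and H3K36me3 shared 1019, with a median of 597 bp. The longest doubly marked stretch with H3K27me3 was chr6:127103334-127105031, 1698 bp. There the H3K4me3 peak was 1698 bp wide in replicate 1 and 7330 bp in replicate 2, and the H3K27me3 peak 2428 bp and 10830 bp. Both peaks scored 3100 in replicate 2. Their replicate 1 scores were 223.8 for H3K4me3 and 83.2 for H3K27me3, the latter close to the minimum of its list, 80.08. The others were chr15:99053498-99054905 (1408 bp), chr2:18599183-18600266 (1084 bp), chr3:30405904-30406645 (742 bp) and chr15:101003592-101004317 (726 bp). H3K36me3 lay 3.86 kb and 8.44 kb from the first, 11.2 kb and 7.96 kb from the second, 3.09 kb and 2.96 kb from the third, and between 95.98 kb and 116.5 kb from the other two stretches. Bivalent-type stretches thus occurred both near to and far from H3K36me3.

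The longest stretches of H3K4me3 with H3K36me3 in both replicates were chr3:58220609-58227583 (6975 bp), chr2:125860968-125866673 (5706 bp), chr13:31900310-31905548 (5239 bp), chr8:129111516-129116170 (4655 bp) and chr10:21714988-21719615 (4628 bp). The third lay inside a leading H3K4me3 region described above.

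Peaks of 1 mark joined where they were less than 10 kb apart gave 8063 and 8909 H3K36me3 clusters, of which 581 and 777 were 50 kb or longer. H3K27me3 gave 560 and 7858 clusters, of which 110 in replicate 2 reached 50 kb. The longest of these, chr4:116517952-116650081, spanned 132.1 kb with 28 H3K27me3 peaks over 70.8 kb, 1.68 kb of H3K4me3 and no H3K36me3 peak. H3K4me3 formed its longest cluster at chr13:23589776-23679083 in replicate 1 (89.3 kb, 17 peaks) and chr13:23579730-23679296 in replicate 2 (99.6 kb, 16 peaks), with neither other mark inside. A cluster of promoter-type peaks without gene-body marking was therefore seen at this locus in both replicates.

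Chromosomes differed in how much H3K27me3 they carried for their H3K4me3. In replicate 2 the ratio of covered bp ran from 0.117 on chromosome 9 (204 H3K27me3 peaks) through a median of 0.577 to 1.49 on chromosome 6, a 12.7-fold range. In replicate 1 it ran from 0.000417 on chromosome 9, which had 1 peak, through a median of 0.0182 to 0.0564 on chromosome 15. Chromosome 9 was thus lowest in both. The ratio of H3K36me3 to H3K4me3 bp varied 1.79-fold in replicate 1, from 1.91 to 3.41, and 1.60-fold in replicate 2, from 1.63 to 2.60. Over the 19 chromosomes, replicates correlated with Pearson r = 0.77 and Spearman rho = 0.854 for H3K27me3 to H3K4me3, and with 0.788 on both measures for H3K36me3 to H3K4me3. These are descriptions, since the points share the libraries and the H3K4me3 denominators.

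**Figure D5:**
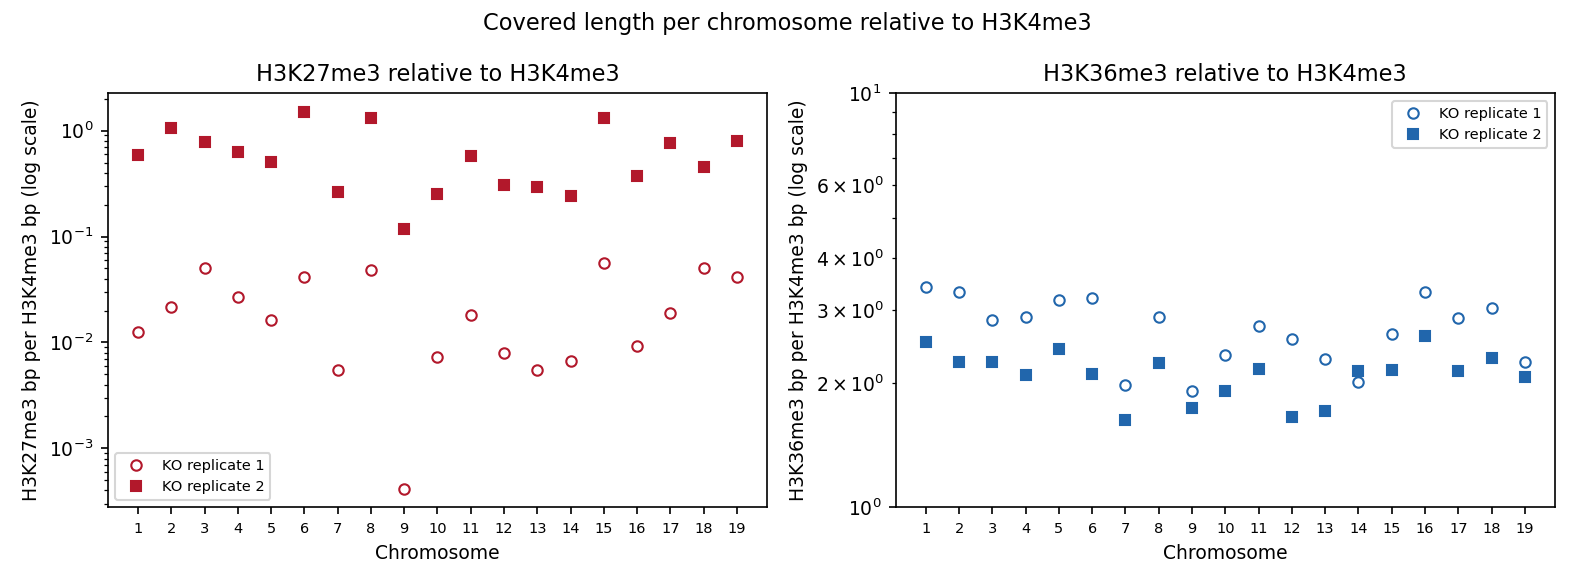
Covered bp of H3K27me3 (left) and of H3K36me3 (right) per covered bp of H3K4me3 on each of chromosomes 1 to 19, on log axes; open circles are KO replicate 1 and filled squares replicate 2, with 1 value per library and no error bars. For H3K27me3 chromosome 9 is lowest in both replicates and the replicates are far apart in level, while the H3K36me3 ratios lie between 1.63 and 3.41.

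Chromosomes 2, 6, 8 and 15, picked after their values were seen, together held 40.4% of the H3K27me3 length in replicate 1 and 45.4% in replicate 2. They held 23.6% and 23.9% of H3K4me3 and 26.2% and 24.8% of H3K36me3. Chromosome 2 went the other way in replicate 1, with 7.27% of H3K27me3 against 7.85% of H3K4me3. Chromosome 3, outside this set, had the largest H3K27me3 share in replicate 1, 12.9%. In replicate 2 the share of H3K4me3 peaks overlapped by H3K27me3 ran from 2.84% on chromosome 9 (32 of 1128) to 8.16% on chromosome 6 (103 of 1262), with a median of 5.45%. In replicate 2 this share thus varied 2.88-fold between chromosomes, against 12.7-fold for the ratio of H3K27me3 to H3K4me3 bp, a different measure. In replicate 1 the share ran from 0% to 0.847% on chromosome 3, so no fold range can be given.

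On chromosome 18, 1 stretch held nearly all H3K27me3 of replicate 1. The interval chr18:88450562-89976005, of 1.53 Mb and also picked after its values were seen, had 38 of the 42 H3K27me3 peaks of that chromosome (90.5%) in replicate 1 and 64 of 421 (15.2%) in replicate 2. H3K36me3 had 48 and 28 peaks in it (4.27% and 2.33% of its peaks on that chromosome). H3K4me3 had 4 in each replicate (0.821% and 0.565%). Both gene-body and Polycomb marks were thus present in this interval, on different bp.

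On the scale of 1 Mb the marks shared territory that they did not share bp by bp. Over 2115 bins, covered bp of H3K4me3 and H3K36me3 had Spearman rho = 0.828 in replicate 1 and 0.830 in replicate 2. H3K27me3 had rho = 0.216 and 0.564 with H3K4me3, and 0.213 and 0.529 with H3K36me3. Neighbouring bins share genes and all bins share the same libraries, and peak-poor bins enter every pair, so these values are descriptions. In replicate 2, bins with more H3K36me3 thus tended to hold more H3K27me3, while 8 of 17471 H3K27me3 peaks touched H3K36me3.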

How the data were processed

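The labels' protocols state that cells were fixed with formaldehyde, that nuclei were sonicated, and that histone-bound DNA was captured with an antibody against each mark. Per the submitters' processing notes, Bowtie 0.12.7 and MACS were used with mm9; no version of MACS is stated there. Each list comes from 1 library and not from pooled replicates. The authors deposited 1 peak list per library against whole-cell extract, holding positions and a score per peak; the labels give no formula for it. This deposited score was used only to filter and describe peaks within a list. Lists grow with depth and enrichment, which are unknown here, since no read counts were used.

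From the 6 lists, overlaps (at least 1 bp), edge-to-edge distances, a window of 10 kb, and coverage around peak centres were computed on chromosomes 1 to 19 with Python 3.11.15, numpy 2.4.6 and pandas 2.3.3, after tests on simulated data. Marks were matched by replicate number. Tests were exact two-sided permutations of 2 library values against 2 (scipy 1.17.1). They took no account of libraries that both sides of a comparison shared. Intervals are 95% Wilson intervals. Alternatives changed the score minimum, joining of peaks, window, overlap, chromosomes, matching and replicates. Named regions were the 5 of each kind with most bp in both replicates. This rule, the comparisons and the choice of libraries were made with earlier results of these data known. Gene lists, promoters and sequences were not analysed here because the tables used are on GRCm38 and the peaks on mm9.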

Additional observations from a re-analysis of the deposited data

Results flagged for a closer look

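Peaks outside chromosomes 1 to 19 took no part in the comparisons. On chromosome X, H3K4me3 had 445 peaks in KO replicate 1 and 603 in replicate 2, H3K36me3 had 360 and 743, and H3K27me3 had 5 and 20. The ratio of H3K27me3 to H3K4me3 bp there was 0.00466 and 0.0159, below the median over chromosomes 1 to 19 of 0.0182 and 0.577. H3K27me3 overlapped 0 of the 445 and 4 of the 603 H3K4me3 peaks on X. Unplaced contigs carried 25 and 33 H3K4me3 peaks, 29 and 32 H3K36me3 peaks and 3 and 25 H3K27me3 peaks.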

How the results depend on the processing

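Of 33 alternative values for the 4 tested comparisons, 31 kept their direction and 2 reversed. Both reversals were in width, where the main difference of H3K36me3 minus H3K4me3 was -0.16 on the log2 scale. It became 0.25 with scores of at least 160 and 0.32 with peaks less than 1 kb apart joined. Leaving out 1 replicate at a time, which leaves 1 library per mark and no test, gave -0.18 to -0.15 for width and 6.30 to 7.70 points for the overlap of H3K27me3 with H3K4me3 minus that with H3K36me3. It gave 25.03 to 41.7 points for H3K4me3 near H3K36me3 minus near H3K27me3, and 2.32 to 6.88 for the log2 distance of H3K4me3 to H3K27me3 minus to H3K36me3. The distance difference was smaller without replicate 1, whose H3K27me3 list has 698 peaks, and larger without replicate 2.

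With the replicate number as a block, the overlap difference stayed at 7.00 points with an exact sign-flip p of 0.5, the smallest that 2 pairs can give. Both sides of this comparison share the H3K27me3 library, which pairs them whatever the numbers mean. Between marks, the numbers were not shown to pair the libraries. Deviations of same-numbered libraries over 1 Mb bins correlated at 0.21 for H3K4me3 with H3K36me3, 0.0033 for H3K4me3 with H3K27me3 and 0.033 for H3K36me3 with H3K27me3. In an alternative chosen after seeing the data, the 698 highest-scoring H3K27me3 peaks of replicate 2 had a median width of 5904.5 bp, and 225 (32.2%) overlapped H3K4me3 and 0 overlapped H3K36me3. The alternative on promoter windows was not run, because no mm9 annotation was used.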
